A study of Mus musculus with 42 samples.

Results

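The tumors described here are those that received aPD1 as the only active antibody (n = 6) and the isotype control tumors they are set against (n = 5), which make up 11 of the 42 tumors of the blockade experiment. They were chosen by their treatment label alone, and no measured value entered the choice. All 11 tumors were MC38, an established mouse colon carcinoma line, grown in CC75×B6 mice, the F1 offspring of CC075/UncJ and C57BL/6J, a cross that the study used as an aPD1 responder. Hosts were female, 8 to 12 weeks old, and carried a subcutaneous tumor grown from injected MC38 cells. Besides aPD1 or its control, both groups had received the isotype controls of the antibodies that other arms used for blockade (100 μg for aGMCSF, 200 μg for aIL2RB), at intervals of 3 days. At a size of 75 to 110 mm3 each mouse was given 200 μg of aPD1 (clone 29F.1A12) or of isotype control (clone 2A3) in 1 injection, and the whole tumor was collected 48 h later for poly(A) RNA-seq. Each profile is thus a mixture of tumor and host cells from 1 mouse, and only 1 tumor line and 1 host cross were used. In such bulk profiles, more cells of a type and more RNA per cell cannot be told apart.

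PD-1 is a receptor on activated T cells that dampens signaling from the T cell receptor when it binds PD-L1 on tumor or myeloid cells. Antibodies that block it release T cells to secrete cytokines such as interferon gamma (IFN-γ), which acts on neighboring cells. Interferons of all types induce overlapping sets of antiviral and antigen-presenting genes, so many of the genes below respond to more than 1 interferon.

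Total counts ranged from 15109184 to 24101643 in the 11 tumors, and 16932 of 26811 genes passed the filter on low counts. Levels are given as CPM, which are counts scaled to a common library size with TMM factors, and are compared between tumors but not between genes, since they are not divided by gene length. Fold changes are log2 values of aPD1 over isotype with their standard error, and a gene is called higher or lower where its edgeR adjusted p over all genes was under 0.05. The fit held all 42 tumors, which share 1 estimate of the spread, and counts from a fit of the 11 tumors alone are given for lists where they differed by over 1.5 times and for the main lists. Transcripts of 5 rRNA genes took 1.72% to 8.55% of counts in isotype tumors and 4.57% to 17.9% in aPD1 tumors.

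Some tumors also held RNA of skeletal muscle and skin markers, whose source was not tested. Summed skeletal muscle markers stood at 41.4, 23.4, 1.21, 2.07 and 1.26 CPM in isotype tumors 1 to 5 and at 120, 6.84, 972, 1.12, 215 and 429 CPM in aPD1 tumors 1 to 6. Of the 10 muscle markers 8 were called higher (against 6.17% of all genes tested) and 4 in the 11 tumors alone, and Myh4, a fast muscle myosin, was at 3.49, 1.19, 0, 0 and 0 CPM in isotype tumors and at 27.6, 0.960, 222, 0, 93.3 and 121 CPM in aPD1 tumors. Keratin 1 (Krt1), of the upper skin layers, was the 1 keratinocyte marker of 5 that was called, was at 0 in every isotype tumor and was found only in aPD1 tumors 2 and 3, at 9.72 and 2.41 CPM. Its call was lost without aPD1 tumor 2 (adjusted p = 0.0529), and in the 11 tumors alone edgeR called 0 of the 5 (3 at an unadjusted p under 0.05). The part of muscle and skin RNA in other results was not tested, beyond a fit given below without the 4 aPD1 tumors highest in muscle markers.

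With aPD1 given once, 48 h before collection, RNA of most type I interferon-induced genes and most macrophage markers was higher, and that of some sterol and fatty acid synthesis genes (12 of 26) and ribosomal protein genes (17 of 55) was slightly lower. In the 11 tumors alone 1 of the 26 and 1 of the 55 were called lower. Of the genes tested, 1045 (6.17%) were called higher and 430 (2.54%) lower. Scaling by library size only gave 769 higher and 1174 lower genes and a median of -0.08 over all genes, so which side held more genes turned with the scaling. The called higher genes had a median log2 fold change of 0.75, and 316 of them at least doubled. The called lower genes had a median of -0.28, and 10 of them changed at least 2-fold. Over all genes tested the median was 0.00. The CPM values of the groups did not overlap for 572 genes on the higher side (3.38%) and for 191 on the lower side (1.13%). In the 11 tumors alone 988 genes (5.84%) were higher and 234 (1.38%) lower, and 728 of the 1045 higher genes and 196 of the 430 lower genes were called in both fits. With a term for the 2 sets of tumors described below, the counts were 1219 and 604 with all 42 tumors and 1183 and 396 with the 11, the latter fit added after the values were seen. Without aPD1 tumor 4 the counts were 511 and 159 and without isotype tumor 4 they were 620 and 160, and lower genes numbered 278, 274 and 236 without aPD1 tumor 5, aPD1 tumor 6 and isotype tumor 2.

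**Figure D1:**
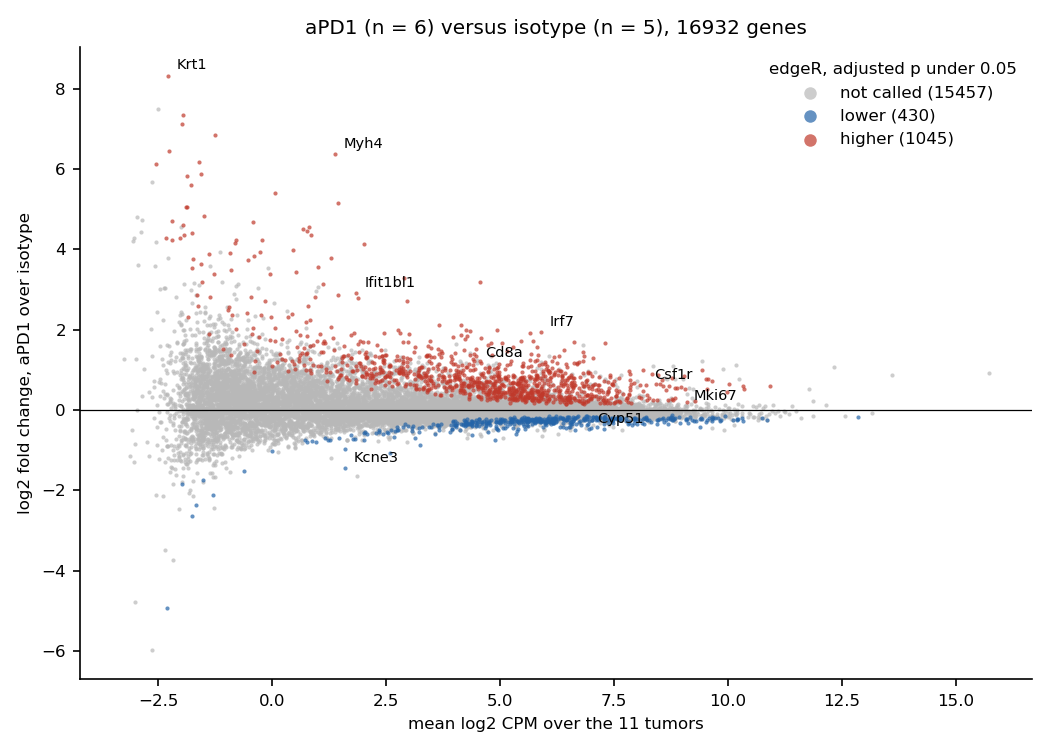
Each point is 1 of 16932 genes, with its mean log2 CPM over the 11 tumors on the horizontal axis and its log2 fold change of aPD1 over isotype on the vertical axis. Called genes (red, 1045 higher, and blue, 430 lower) reach further from 0 on the higher side, where 316 at least doubled, than on the lower side, where 10 changed that much.

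Most genes induced by type I interferon rose. Of 39 such genes tested, 31 were called higher and 0 lower, with a median log2 fold change of 0.93, and 28 were higher in the 11 tumors alone. Irf7 (chr7:141262706-141266481, GRCm38), the transcription factor that amplifies interferon production, stood at 25.6, 39.3, 26.7, 31.3 and 30.7 CPM in isotype tumors 1 to 5 and between 52.4 and 198 CPM, median 121 CPM, in aPD1 tumors. Every aPD1 tumor was above every isotype tumor, with the highest levels in aPD1 tumors 4, 5 and 6, and Irf7 rose by 1.94 ± 0.29 (SE, edgeR adjusted p = 0.000156). Oasl1 (chr5:114923240-114937915), an inactive relative of the oligoadenylate synthetases that restrains the translation of Irf7, was at 9.39, 13.5, 8.37, 9.66 and 10.2 CPM in isotype tumors and at 16.7 to 60.7 CPM, median 43.4 CPM, in aPD1 tumors. Again the groups were apart (log2 fold change 1.97 ± 0.28, edgeR adjusted p = 0.000139). Oas3 (chr5:120753098-120777661), a synthetase that senses double-stranded RNA, rose by 1.99 ± 0.33 (edgeR adjusted p = 0.000356). Ifit1bl1 (chr19:34592891-34601956), of the Ifit family of antiviral proteins, rose by 2.91 ± 0.52 (edgeR adjusted p = 0.000723), on counts that were as low as 8 in 1 tumor. Reads are divided among copies in this family, where 4 of 6 members tested had counts that were not whole. Oas2 and Trim30a, a TRIM family protein, rose by 1.52 ± 0.23 and 1.14 ± 0.17 (edgeR adjusted p of 0.00018 and 0.000167). The calls of Irf7, Oasl1, Oas3, Ifit1bl1, Oas2 and Trim30a held when any 1 of the 11 tumors was left out.

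The PYHIN and Schlafen families, gene clusters on chromosomes 1 and 11 that interferon induces, were higher as well. PYHIN proteins bind nucleic acids, and 10 of 11 members tested were called higher with a median log2 fold change of 1.57, and 10 also in the 11 tumors alone. The exception was Aim2, the DNA sensor of an inflammasome, at a log2 fold change of 0.13 (edgeR adjusted p = 0.29). Reads are divided among close copies in this cluster, and 9 of the 11 members had counts that were not whole, so single members are uncertain. Summed over these 11 members (chr1:173350879-173942672), isotype tumors ranged from 249.9 to 294 CPM and aPD1 tumors from 438 to 907 CPM, and the ratio of the means was 2.53. The summed counts were whole in 0 of the 11 tumors, so the sum too shares reads with genes outside it. Ifi206 was at 8.92, 10.2, 8.37, 6.50 and 7.47 CPM in isotype tumors and at 15.5 to 53.3 CPM, median 40.8 CPM, in aPD1 tumors. Its groups did not overlap, and it rose by 2.12 ± 0.35 (edgeR adjusted p = 0.000356). Ifi213 rose by 1.99 ± 0.30 and Ifi208 by 1.89 ± 0.32. Schlafen proteins regulate growth and antiviral defense of lymphoid and myeloid cells, and 5 of 7 members were called higher. Here too reads are divided among copies, and 4 of the 7 had counts that were not whole. Slfn5 was at 32.6, 30.5, 30.2, 21.9 and 29 CPM in isotype tumors and between 48.6 and 138 CPM, median 103 CPM, in aPD1 tumors. No values overlapped (log2 fold change 1.72 ± 0.25, edgeR adjusted p = 0.000139), and Slfn1 and Slfn4 rose by 1.86 ± 0.37 and 1.82 ± 0.36.

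Promoters of the 12 higher genes with the largest fold change, among called genes whose groups did not overlap and whose mean log2 CPM reached 1, were read from RefSeq (GRCm38.p6, 250 bases before to 50 after each transcription start), and all 12 had an entry. Both strands were searched for the interferon-stimulated response element, that is GAAA, any 2 bases and GAAA, and the gamma-activated site, written as TTCNNNGAA, and no matches overlapped in these promoters. The first was in 8 of 14 promoters of these genes (57.1%) and in 3.44% of all 32851 promoters, and the second in 1 of 14 (7.14%) and in 8.3% of all. By gene the first was in 7 of 12, since Ifit1bl1 entered with more than 1 promoter that held it. Promoters of 4 of these genes are shown because they carry the first motif, which stands in capitals and lies on the opposite strand in Gbp2b.
Ifi206, chr1:173491269-173491568, minus strand: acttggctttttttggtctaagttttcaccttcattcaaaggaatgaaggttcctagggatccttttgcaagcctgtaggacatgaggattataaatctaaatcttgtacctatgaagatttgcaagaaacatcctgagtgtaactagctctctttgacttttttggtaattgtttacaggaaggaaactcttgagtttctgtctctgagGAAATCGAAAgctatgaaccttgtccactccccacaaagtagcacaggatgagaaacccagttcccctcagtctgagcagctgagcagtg
Ifi213, chr1:173599223-173599522, minus strand: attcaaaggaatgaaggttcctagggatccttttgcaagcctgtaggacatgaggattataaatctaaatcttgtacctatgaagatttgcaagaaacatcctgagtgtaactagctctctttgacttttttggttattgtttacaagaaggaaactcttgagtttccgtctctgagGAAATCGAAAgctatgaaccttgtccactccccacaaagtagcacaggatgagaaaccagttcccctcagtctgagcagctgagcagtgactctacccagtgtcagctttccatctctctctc
Oas3, chr5:120777610-120777909, minus strand: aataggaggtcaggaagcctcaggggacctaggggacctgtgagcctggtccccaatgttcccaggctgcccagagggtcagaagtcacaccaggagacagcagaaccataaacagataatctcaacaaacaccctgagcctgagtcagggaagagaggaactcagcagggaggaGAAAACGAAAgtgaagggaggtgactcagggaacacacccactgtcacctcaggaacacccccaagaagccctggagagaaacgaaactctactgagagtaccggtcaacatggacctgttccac
Gbp2b, chr3:142594597-142594896, plus strand: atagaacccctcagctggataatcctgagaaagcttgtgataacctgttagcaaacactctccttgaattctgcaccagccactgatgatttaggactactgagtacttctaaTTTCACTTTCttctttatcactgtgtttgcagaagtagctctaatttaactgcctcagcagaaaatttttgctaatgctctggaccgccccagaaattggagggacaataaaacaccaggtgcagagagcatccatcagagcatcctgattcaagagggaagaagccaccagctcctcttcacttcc
The first base of the motif lies 40 bases before the start in Ifi206, 73 in Ifi213, 75 in Oas3 and 137 in Gbp2b. The promoters of Ifi206 and Ifi213 share an unbroken stretch of 135 bases, and that of Ifi208, also counted above, shares 182 with Ifi206 and 135 with Ifi213, so these 3 neighbors are not independent examples. Neither motif in these letters was found in the windows of Irf7, Oasl1, Acod1 (which makes itaconate) or Ly6c2 (a monocyte antigen), whereas Il12rb2, the inducible chain of the IL-12 receptor, held the gamma-activated site alone. The response element was in 19 of 36 promoters (52.8%) of the type I interferon list, in 9 of 13 (69.2%) of the PYHIN family and in all 6 promoters of immunity-related GTPases that had an entry. It was also in 5 of 6 (83.3%) of guanylate-binding proteins and in 4 of 8 (50%) of the Schlafen family. The gamma-activated site was in 5 of 6 promoters (83.3%) of immunity-related GTPases, in 7 of the 36 (19.4%), in 1 of the 13 (7.69%), in 2 of 6 promoters (33.3%) of guanylate-binding proteins and in 0 of 8 of the Schlafen family, against the 8.3% of all promoters. Lists that were called higher in part did not all hold the response element, which was in 0 of 13 promoters of macrophage and monocyte markers and in 1 of 12 (8.33%) of MHC class II presentation. None of 16 promoters of the 12 lower genes chosen in the same way, of which 11 had an entry, held either motif. Of the genes shown or named here, the calls of Acod1, Gbp2b, Il12rb2 and Ly6c2 did not hold when some single tumors were left out. They were lost for Il12rb2 without any 1 of 9 tumors, all but aPD1 tumors 2 and 3 (adjusted p of 0.0525 to 0.104) and for Ly6c2 without any 1 of 9 tumors, all but aPD1 tumors 2 and 3 (adjusted p of 0.0722 to 0.0963). Gbp2b lost its call without any 1 of 6 tumors, namely aPD1 tumors 4 and 6 and isotype tumors 1, 3, 4 and 5 (adjusted p of 0.0515 to 0.0805) and Acod1 without any 1 of 6 tumors, namely aPD1 tumors 4 and 5 and isotype tumors 1, 3, 4 and 5 (adjusted p of 0.0503 to 0.0647).

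Genes of IFN-γ signaling were called in part. Of 16 genes, 6 were called higher and the median was 0.26, and 6 were called in the 11 tumors alone. Irf8, a factor of myeloid and dendritic cell identity, rose by 0.84 ± 0.21 (edgeR adjusted p = 0.0109) and kept its call without each tumor. Ifng, the gene of the cytokine itself, was at 0.944, 2.74, 0.403, 1.31 and 2.15 CPM in isotype tumors and at 3.23 to 6.08 CPM, median 4.25 CPM, in aPD1 tumors. Its groups were apart, with a log2 fold change of 1.53 ± 0.64 and an edgeR adjusted p of 0.129 with all tumors and 0.0247 with the 11 alone. Irf1, an early target of IFN-γ, did not pass in either fit (0.23 ± 0.12, edgeR adjusted p of 0.242 and 0.131).

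Guanylate-binding proteins, GTPases that attack vacuoles of intracellular microbes, had a median log2 fold change of 0.86, with 2 of 11 members called with all tumors and 9 of 11 in the 11 tumors alone. Immunity-related GTPases, which act on the same vacuoles, had a median of 0.95, with 0 of 10 called by edgeR with all tumors (8 at an unadjusted p under 0.05) and 9 of 10 in the 11 tumors. Gbp2b was at 5.66, 9.72, 5.19, 3.80 and 5.37 CPM in isotype tumors and at 13.2 to 41.5 CPM, median 25.7 CPM, in aPD1 tumors. Its groups did not overlap and it rose by 2.12 ± 0.63 (edgeR adjusted p = 0.0281), with a call lost without any 1 of 6 tumors, namely aPD1 tumors 4 and 6 and isotype tumors 1, 3, 4 and 5 (adjusted p of 0.0515 to 0.0805). The family members on chromosome 5 are close copies that share reads, and their sum ranged from 274 to 445 CPM in isotype tumors and from 410.0 to 683 CPM in aPD1 tumors. Their summed counts were whole in 2 of the 11 tumors, so this sum too shares reads with genes outside it.

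**Figure D2:**
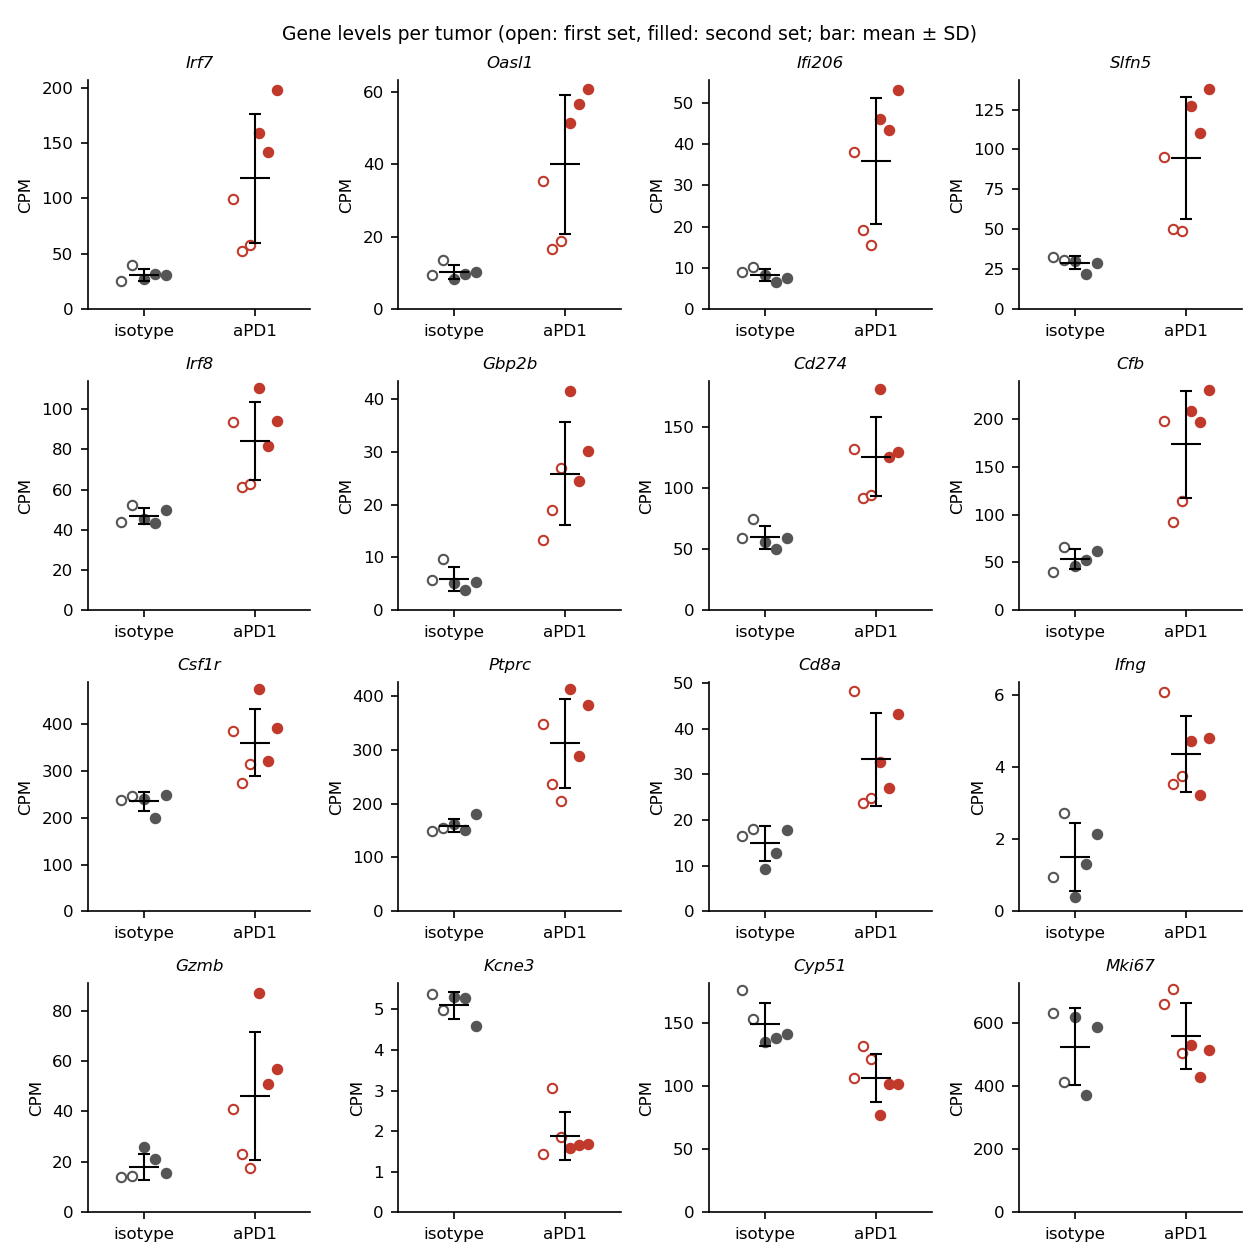
CPM (vertical axis) of 16 genes in each tumor of the isotype and aPD1 groups, with open circles for isotype tumors 1 and 2 and aPD1 tumors 1 to 3, filled circles for the others, and the mean ± SD of each group. Irf7, Oasl1, Ifi206 and Slfn5 are highest in aPD1 tumors 4 to 6, Kcne3 is lower in every aPD1 tumor than in every isotype tumor, and Mki67 overlaps between the groups.

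Among 24 genes of MHC class I presentation the nonclassical H2-T24 and H2-T23 were the 2 called higher, a share near the 6.17% of all genes tested, and the list median was 0.05. H2-T24 was at 13.6, 14.7, 12.95, 13.2 and 13.9 CPM in isotype tumors and at 21.2 to 51.7 CPM, median 33.1 CPM, in aPD1 tumors. Its values did not overlap (1.35 ± 0.25, edgeR adjusted p = 0.000877), and H2-T genes are close copies that share reads. The call of H2-T23 (0.93 ± 0.29) was lost without any 1 of 6 tumors, namely aPD1 tumors 4 and 6 and isotype tumors 1, 3, 4 and 5 (adjusted p of 0.0579 to 0.104). Of 13 class II genes 3 were called higher, namely the lysosomal reductase Ifi30 (0.60 ± 0.14) and the proteases Lgmn (0.55 ± 0.13) and Ctss (0.77 ± 0.21), which process antigen rather than bind it. Ctss lost its call without aPD1 tumor 4 (adjusted p = 0.0624). In the 11 tumors alone 9 of 13 were called, among them the class II transactivator Ciita, Cd74 and H2-Ab1, and the median with all tumors was 0.60.

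Markers of macrophages and monocytes were called higher in 11 of 15 cases (10 in the 11 tumors alone), with a median of 0.62. Csf1r, the receptor that sustains macrophages, was at 237, 248, 241, 199.5 and 249 CPM in isotype tumors and at 274 to 476 CPM, median 353 CPM, in aPD1 tumors. The groups did not overlap and Csf1r rose by 0.62 ± 0.10 (edgeR adjusted p = 0.000356). Adgre1, which encodes the F4/80 antigen, rose by 0.73 ± 0.16. Ly6c2, a marker of recruited monocytes that has a close copy, rose by 1.91 ± 0.63, a call lost without any 1 of 9 tumors, all but aPD1 tumors 2 and 3 (adjusted p of 0.0722 to 0.0963). Of 10 genes of lipid-handling macrophages only Fabp5, a fatty acid carrier, was called (0.66 ± 0.16), and 2 in the 11 tumors alone. Spp1, the osteopontin gene, was at 153, 169, 326, 299 and 229 CPM in isotype tumors and at 147 to 313 CPM, median 204 CPM, in aPD1 tumors. The values of Spp1 overlapped throughout (-0.12 ± 0.26, edgeR adjusted p = 0.825).

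Some receptors by which myeloid cells sense microbes and antibody were also higher. Of 15 genes of Toll-like receptor sensing 9 were called higher, with a median of 0.63. Tlr7, a receptor for single-stranded RNA, was at 18.7, 17.9, 23.2, 20.4 and 24.1 CPM in isotype tumors and at 30.8 to 60.97 CPM, median 41.2 CPM, in aPD1 tumors. Its groups did not overlap (1.06 ± 0.18, edgeR adjusted p = 0.000356), and its neighbor on the X chromosome, Tlr8, rose by 1.15 ± 0.26. Unc93b1, which carries these receptors to endosomes, rose by 0.82 ± 0.18. Of 5 Fc gamma receptor genes 3 were called, and all 5 in the 11 tumors alone, among them Fcgr1, the high-affinity receptor, which rose by 1.17 ± 0.24. Of 14 complement genes 7 were called, with a median of 0.68. Factor B (Cfb), of the alternative pathway, was at 40.3, 66.5, 46.6, 52.7 and 62.4 CPM in isotype tumors and at 92.4 to 230.4 CPM, median 198 CPM, in aPD1 tumors. Its groups were apart (1.69 ± 0.35, edgeR adjusted p = 0.00235). The C1q chains rose by 0.59 ± 0.15 (C1qa), 0.66 ± 0.17 (C1qb) and 0.65 ± 0.15 (C1qc), and C1qa lost its call without aPD1 tumor 4 (adjusted p = 0.0568). Of 16 genes of inflammasomes and lytic cell death 6 were called, led by Nlrc4, a sensor of bacterial proteins (0.89 ± 0.20).

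Among secreted signals, 6 of 21 inflammatory mediators were called higher and 0 lower. Il27, a cytokine of activated myeloid cells, was near the limit of detection at 0.0472, 0.228, 0.202, 0.295 and 0.280 CPM in isotype tumors and at 0.900 to 2.44 CPM, median 1.39 CPM, in aPD1 tumors. It rose by 2.81 ± 0.51 (edgeR adjusted p = 0.000828) with no overlap. Tnfsf10, the death ligand TRAIL, rose by 1.53 ± 0.33. Acod1, which makes itaconate in activated macrophages, rose by 1.92 ± 0.56, a call lost without any 1 of 6 tumors, namely aPD1 tumors 4 and 5 and isotype tumors 1, 3, 4 and 5 (adjusted p of 0.0503 to 0.0647). Of 16 CC chemokines and receptors 7 were called in the 11 tumors alone and 4 with all tumors, among them Ccl9 (1.07 ± 0.24), Ccl6 (1.17 ± 0.36) and Ccl7 (1.06 ± 0.34), and of these 3 only Ccl9 kept its call without each tumor in turn. Ccl6 lost it without any 1 of 6 tumors, namely aPD1 tumors 4 and 5 and isotype tumors 1, 2, 3 and 4 (adjusted p of 0.0626 to 0.158) and Ccl7 without any 1 of 8 tumors, all but aPD1 tumors 2 and 3 and isotype tumor 2 (adjusted p of 0.0532 to 0.101). In the CXCR3 and CXCR6 axis Cxcl10, a ligand that draws T cells, was the 1 gene of 6 called (0.88 ± 0.26), and 5 of 6 were called in the 11 tumors alone. The call of Cxcl10 was lost without any 1 of 8 tumors, all but aPD1 tumors 2 and 3 and isotype tumor 2 (adjusted p of 0.0511 to 0.0738).

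Some receptor genes of GM-CSF, IL-2 and IL-15, whose signaling other arms of the experiment blocked, were higher after aPD1. Of 9 genes of GM-CSF, IL-2 and IL-15 signaling that were tested, 4 were called, and the genes of GM-CSF (Csf2) and of IL-2 (Il2) did not pass the filter on low counts. Csf2rb, the signaling chain of the GM-CSF receptor, was at 38.6, 41.4, 41.4, 29.7 and 38.7 CPM in isotype tumors and at 52.8 to 97.7 CPM, median 73.7 CPM, in aPD1 tumors. It rose by 0.98 ± 0.23 (edgeR adjusted p = 0.00744) with no overlap, and its close copy Csf2rb2 by 1.22 ± 0.31. Il2rg, the gamma chain used by several interleukin receptors, rose by 0.95 ± 0.25, a call lost without aPD1 tumor 4 (adjusted p = 0.0535). Il2rb was called only in the 11 tumors alone.

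T cell transcripts were called in fits of the 11 tumors or of the second set described below, but not with all 42 tumors. Of 18 genes of the T cell receptor complex, 0 were called by edgeR with all tumors (3 at an unadjusted p under 0.05), 11 in the 11 alone and 7 in the second set alone, and the median was 0.98. Cd8a, a coreceptor of killer T cells, was at 16.5, 18.1, 9.17, 12.9 and 17.7 CPM in isotype tumors and at 23.7 to 48.2 CPM, median 29.9 CPM, in aPD1 tumors. The groups did not overlap, and the log2 fold change was 1.16 ± 0.62 with an edgeR adjusted p of 0.242, against 0.00689 in the 11 tumors, where its standard error was 0.21. The wider fit also held the blockade arms, in which the mean level of T cell markers ranged from -4.81 to 0.70 relative to isotype on the log2 scale. Cd4 and Foxp3 (the factor of regulatory T cells) overlapped between the groups and passed in neither fit (0.95 ± 0.53 and 0.84 ± 0.45), and of 6 regulatory T cell markers 0 were called by edgeR (2 at an unadjusted p under 0.05), and 1 in the 11 alone. Gzmb, a granzyme of killer cells, was at 13.9, 14.2, 25.8, 21.2 and 15.5 CPM in isotype tumors and at 17.6 to 87.05 CPM, median 45.8 CPM, in aPD1 tumors. The ranges met at aPD1 tumors 2 and 3, and the edgeR adjusted p was 0.233 with all tumors and 0.0297 with the 11 (1.35 ± 0.70). Of 16 cytotoxic effectors 2 were called, Serpinb9, an inhibitor of granzyme B (0.47 ± 0.11), and Srgn, the granule proteoglycan (0.80 ± 0.27), and 5 in the 11 tumors alone. The call of Srgn was lost without any 1 of 9 tumors, all but aPD1 tumors 2 and 3 (adjusted p of 0.0619 to 0.144). Of 8 T cell markers and 8 natural killer cell markers 0 were called by edgeR with all tumors (0 and 1 at an unadjusted p under 0.05), and 5 and 3 in the 11 alone, and the natural killer receptor Ncr1 passed in neither (0.31 ± 0.43).

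Of 20 checkpoint and costimulation genes, 7 were called with all tumors and 15 with the 11 alone, and their median was 0.95. Cd274, which encodes PD-L1, was at 59.2, 74.99, 55.8, 49.8 and 59.3 CPM in isotype tumors and at 92.2 to 181 CPM, median 128 CPM, in aPD1 tumors. The groups did not overlap (1.07 ± 0.33, edgeR adjusted p = 0.0325, and 0.003 in the 11 tumors), and the call was lost without any 1 of 7 tumors, namely aPD1 tumors 1, 4 and 6 and isotype tumors 1, 3, 4 and 5 (adjusted p of 0.0507 to 0.1). Pdcd1, the gene of PD-1, was at 7.46, 8.76, 3.18, 6.63 and 7.71 CPM in isotype tumors and at 7.20 to 17.8 CPM, median 12.5 CPM, in aPD1 tumors. Of the aPD1 tumors only tumor 2 lay within the isotype range (0.92 ± 0.42, edgeR adjusted p of 0.168, and 0.0426 in the 11 tumors). Cd86 and Cd40, costimulatory molecules of antigen-presenting cells, rose by 1.02 ± 0.23 and 1.34 ± 0.35. Ptprc, the pan-leukocyte gene of CD45, was at 149.7, 154, 161, 150.5 and 180.4 CPM in isotype tumors and at 205 to 412 CPM, median 319 CPM, in aPD1 tumors. It rose by 0.97 ± 0.25 (edgeR adjusted p = 0.013) with no overlap. Of 13 leukocyte adhesion genes 7 were called, among them Icam1 (0.94 ± 0.22) and the integrin Itga4 (1.04 ± 0.25), and of 8 GIMAP genes, GTPases of lymphocytes, 4 were called.

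**Figure D3:**
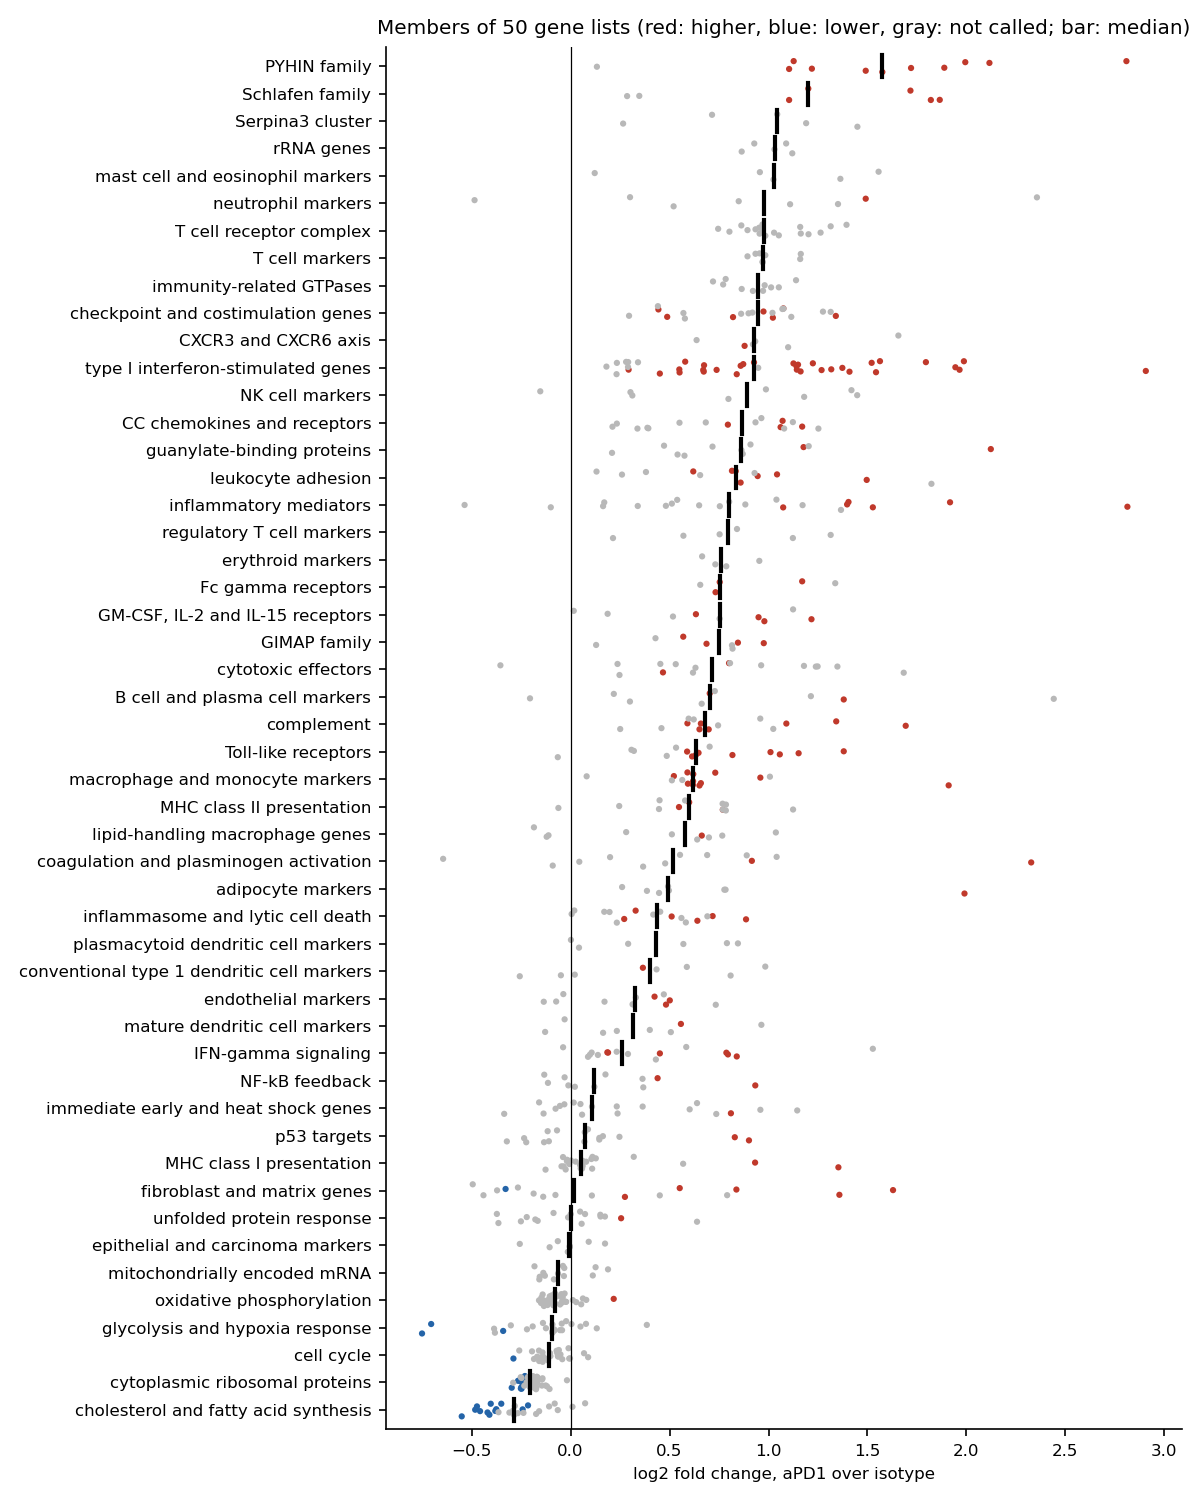
Log2 fold changes of aPD1 over isotype (horizontal axis) for the members of 50 gene lists (vertical axis), with red points called higher, blue points called lower, gray points not called and a bar at the median. The PYHIN and type I interferon lists are mostly red (10 of 11 and 31 of 39), the T cell receptor complex is gray and to the right of 0, and blue points lie mostly in the sterol synthesis (12) and ribosomal protein (17) lists.

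Among markers of other cell types, 1 or a few members were called. Of 8 neutrophil markers 1 was called, Csf3r, the G-CSF receptor (1.49 ± 0.30), and 2 were called in the 11 tumors alone, as were 2 of 8 conventional type 1 dendritic cell markers. With all tumors the conventional type 1 dendritic cell marker called was Wdfy4, needed for cross-presentation (0.37 ± 0.12), with a call lost without any 1 of 8 tumors, all but aPD1 tumors 3 and 5 and isotype tumor 1 (adjusted p of 0.052 to 0.176), and of 8 mature dendritic cell markers Cd200 (0.56 ± 0.17), with a call lost without any 1 of 5 tumors, namely aPD1 tumors 4 and 6 and isotype tumors 1, 3 and 4 (adjusted p of 0.0814 to 0.124). None of 6 plasmacytoid dendritic cell, 5 mast cell and eosinophil, 4 erythroid or 8 epithelial markers was called by edgeR with all tumors, and 2 mast cell and eosinophil markers and 0 of the others had an unadjusted p under 0.05. In the 11 alone 1 mast cell and eosinophil marker was called. Of 9 B cell and plasma cell markers 2 were called, Ighm (0.70 ± 0.19), lost without any 1 of 2 tumors, namely aPD1 tumor 6 and isotype tumor 4 (adjusted p of 0.0562 to 0.0958), and Cd79b (1.38 ± 0.38), lost without any 1 of 2 tumors, namely aPD1 tumor 6 and isotype tumor 3 (adjusted p of 0.0543 to 0.119). In the 11 tumors alone edgeR called 0 of these 9 (3 at an unadjusted p under 0.05). Of 16 fibroblast and matrix genes 5 were higher and 1 lower, with a median of 0.02, against 2 higher and 0 lower by edgeR in the 11 tumors alone (6 and 3 at an unadjusted p under 0.05). With scaling by library size only 2 were higher and 1 lower. Acta2, the smooth muscle actin of myofibroblasts and vessel walls, rose by 1.63 ± 0.33, while Dcn, a matrix proteoglycan, fell by 0.33 ± 0.09 on the log2 scale, a call lost without any 1 of 4 tumors, namely aPD1 tumors 4 and 5 and isotype tumors 1 and 2 (adjusted p of 0.0659 to 0.0893). Of 12 endothelial markers 3 were called higher, against 1 with scaling by library size only. Of the 3, Eng (0.50 ± 0.12) kept its call without each tumor. Of 8 adipocyte markers 1 was called, Car3 (1.99 ± 0.59), lost without any 1 of 5 tumors, namely aPD1 tumors 3 and 6 and isotype tumors 1, 3 and 4 (adjusted p of 0.0663 to 0.0924). In the 11 alone edgeR called 0 of these 8 (1 at an unadjusted p under 0.05). Summed muscle markers were highest in aPD1 tumors 3 and 6 (972 and 429 CPM), and the part of muscle RNA in the Car3 call was not tested.

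By the rule used for promoters above (called, no overlap and a mean log2 CPM of at least 1), the 12 lower genes with the largest changes included an ion channel subunit, homeobox genes and a sterol enzyme. Kcne3 (chr7:100176502-100184869), a potassium channel subunit of epithelia, was at 5.38, 4.97, 5.29, 5.28 and 4.58 CPM in isotype tumors and at 1.43 to 3.06 CPM, median 1.67 CPM, in aPD1 tumors. Every aPD1 tumor was below every isotype tumor, and the log2 fold change was -1.44 ± 0.24 (edgeR adjusted p = 0.000356), on counts of 22 to 125 a tumor. It was the 1 gene of the 12 named lower genes that changed by more than 2-fold. The homeobox genes Hoxd9 and Hoxc10 fell by 0.50 ± 0.14 and 0.46 ± 0.11 on the log2 scale, and Tcf7l1, a transcription factor of the Wnt pathway, by 0.45 ± 0.09. Slc27a3, of a family of fatty acid transporters, fell by 0.47 ± 0.10, Rtkn by 0.45 ± 0.09, and Scrn1 by 0.47 ± 0.09. The calls of the other 4 named lower genes, Ctxn1 (-0.72 ± 0.21), Apbb1 (-0.71 ± 0.19), the channel Kcnj8 (-0.70 ± 0.23) and the zinc finger gene Zfp345 (-0.54 ± 0.16), did not hold when some single tumors were left out. Ctxn1 lost its call without any 1 of 4 tumors, namely aPD1 tumors 4 and 5 and isotype tumors 2 and 3 (adjusted p of 0.0543 to 0.0893) and Apbb1 without any 1 of 2 tumors, namely aPD1 tumor 6 and isotype tumor 1 (adjusted p of 0.0539 to 0.0553). Zfp345 lost it without any 1 of 5 tumors, namely aPD1 tumors 4 and 6 and isotype tumors 1, 3 and 4 (adjusted p of 0.054 to 0.104) and Kcnj8 without any 1 of 9 tumors, all but aPD1 tumors 1 and 2 (adjusted p of 0.0516 to 0.109).

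Genes of cholesterol and fatty acid synthesis were called lower in 12 of 26 cases, with a median of -0.29. In the 11 tumors alone 1 of 26 was called lower and 16 had an unadjusted p under 0.05 and a lower level, and with scaling by library size only 15 were called. Cyp51, the lanosterol demethylase, was at 177, 154, 136, 138 and 142 CPM in isotype tumors and at 76.98 to 132 CPM, median 104 CPM, in aPD1 tumors. It fell by 0.48 ± 0.11 on the log2 scale (edgeR adjusted p = 0.00679) with no overlap, lowest in aPD1 tumor 4. Sqle and the regulator Srebf2 were also called lower, whereas Fasn, Acaca and Acly, which make fatty acids and their precursor, were at -0.06, 0.07 and -0.11 and were not called. Ribosomal protein genes were called lower in 17 of 55 cases with a median of -0.21. In the 11 tumors alone 1 of 55 was called lower and 48 had an unadjusted p under 0.05 and a lower level, and with scaling by library size only 41 were called, with a median of -0.29. Rpl22 fell by 0.25 ± 0.06 (edgeR adjusted p = 0.00981), and such genes share reads with many pseudogenes.

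With all tumors few proliferation and stress genes were called. Of 30 cell cycle genes 1 was lower, Ccnb2, a mitotic cyclin (-0.29 ± 0.09), with a call lost without any 1 of 6 tumors, namely aPD1 tumors 4, 5 and 6 and isotype tumors 1, 3 and 4 (adjusted p of 0.0502 to 0.112). Of these 30 genes 2 had a log2 fold change above 0, the median was -0.11, and 2 were called lower in the 11 tumors alone, 8 with scaling by library size only and 8 in the second set alone (against 3.67% of all genes in that set). Mki67, the proliferation marker, overlapped throughout at 631, 413, 617, 370.3 and 587 CPM in isotype tumors and 429 to 707 CPM, median 521 CPM, in aPD1 tumors (0.09 ± 0.13, edgeR adjusted p = 0.733). Of 25 genes of glycolysis and the hypoxia response 3 that hypoxia induces were lower, Ddit4 (-0.75 ± 0.17), Vegfa (-0.34 ± 0.08) and Ankrd37 (-0.70 ± 0.20), and Ankrd37 lost its call without any 1 of 4 tumors, namely aPD1 tumors 1 and 4 and isotype tumors 1 and 2 (adjusted p of 0.0554 to 0.0979). In the second set alone 2 of the 25 were higher and 0 lower by edgeR (6 and 2 at an unadjusted p under 0.05). Called higher were 1 of 40 oxidative phosphorylation genes, 1 of 17 genes of the unfolded protein response, 2 of 16 p53 targets, 2 of 11 NF-kB feedback genes and 2 of 12 coagulation and plasminogen genes, against 6.17% of all genes tested. The first 2 of these lists did not exceed that share. With scaling by library size only, edgeR called 0 genes higher and 1 lower in each of them. In the 11 tumors alone 1 of the 12 coagulation genes and 0 of the 40 oxidative phosphorylation genes were higher by edgeR (1 of the 40 at an unadjusted p under 0.05). None of 13 mitochondrially encoded mRNAs, 5 rRNA genes or 5 genes of the Serpina3 cluster was called by edgeR, and 1, 4 and 1 of them had an unadjusted p under 0.05, while 2 of the Serpina3 cluster were called in the 11 tumors alone. Of 19 immediate early and heat shock genes, which respond to handling of tissue, Zfp36 was called (0.81 ± 0.19), and 4 of 19 in the 11 tumors alone.

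**Figure D4:**
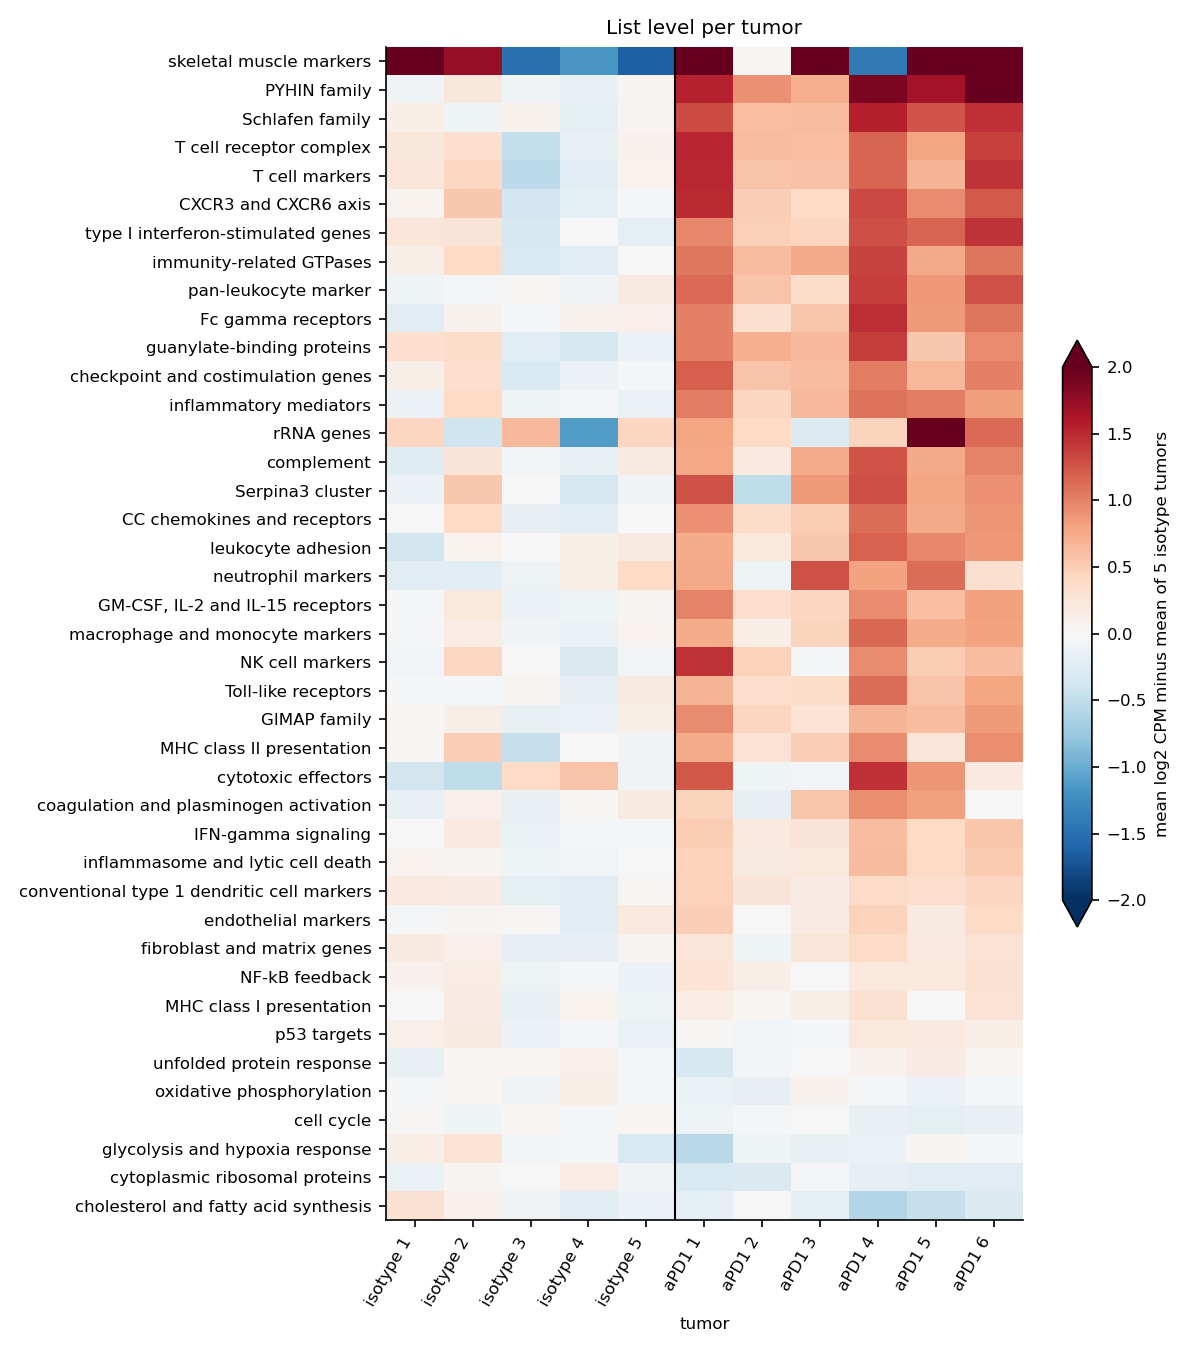
For each gene program and selected cell type markers (vertical axis) and each tumor (horizontal axis) the color gives the mean over members of log2 CPM minus the mean of the 5 isotype tumors, with values beyond 2 on either side drawn as 2. The type I interferon list is at 0.43 to 1.45 in the aPD1 tumors and at -0.32 to 0.27 in isotype tumors, with aPD1 tumors 2 and 3 the palest, and the muscle list follows another order of tumors.

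List levels differed among aPD1 tumors. On the log2 scale relative to the isotype mean, the type I interferon list stood at 0.25, 0.27, -0.32, 0.00 and -0.20 in isotype tumors 1 to 5 and at 0.97, 0.47, 0.43, 1.28, 1.16 and 1.45 in aPD1 tumors 1 to 6. The T cell receptor complex stood at 1.53, 0.61, 0.61, 1.16, 0.79 and 1.36 in aPD1 tumors 1 to 6, and macrophage markers at 0.75, 0.13, 0.45, 1.15, 0.74 and 0.81. Tumors 2 and 3 were the lowest of the 6 in each of these 3 lists. Both belong, with tumor 1, to the first of the 2 sets described below, while the isotype mean is over both sets. Differences among these tumors were not tested apart from the set. In the other arms, the type I interferon list had a median of 0.22 with aGMCSF added to aPD1 (n = 9), 0.19 with aIL2RB added (n = 11) and 0.39 with both (n = 11), against 1.06 with aPD1 alone, all relative to the same isotype tumors and not tested.

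An earlier analysis of these data found that the tumors form 2 sets along their replicate numbers, for which the labels name no batch. Isotype replicates 1 and 2 and aPD1 replicates 1 to 3 belong to the first. Across the 42 tumors, with treatment in the model, RNA of 2309 genes was higher in the second set and that of 1943 was lower there. The fits within a set also held its tumors of the blockade arms. Within the second set 1556 genes (9.19%) were higher after aPD1 and 622 (3.67%) lower. Within the first set, which has 2 isotype tumors, edgeR called 1 gene higher and 1 lower (0.00591% each), and 2088 genes had an unadjusted p under 0.05. The median log2 fold change of the type I interferon list was 0.35 in the first set and 1.51 in the second, that of the PYHIN family 1.01 and 2.01, and that of the T cell receptor complex 0.74 and 1.32. Sterol and fatty acid synthesis had -0.34 and -0.33.

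The difference of the aPD1 effect between the sets, tested in the 11 tumors, passed for 1 gene, Pnrc1, and for 0 genes when aPD1 tumor 3 or any 1 isotype tumor was left out, but for 68 without aPD1 tumor 1. At an unadjusted p under 0.05 the log2 fold change was greater, with its sign, in the second set for 771 genes (4.55%) and less for 597 (3.53%). It was greater for 34 of the 39 type I interferon genes, 9 of 11 PYHIN genes, 5 of 18 T cell receptor genes and 1 of 26 genes of sterol and fatty acid synthesis. It was also greater for 14 of 25 genes of glycolysis and the hypoxia response, whose median was -0.37 in the first set and 0.08 in the second. Stat2, which is part of the complex that carries type I interferon signals to the nucleus, was at 93.05 and 94.6 CPM in isotype and 121, 85.5 and 82.9 CPM in aPD1 tumors of the first set. In the second set it was at 60.8, 64.2 and 57.8 CPM in isotype and 173, 139 and 166 CPM in aPD1 tumors. The groups overlapped in the first set and were apart in the second, and in the fit of all tumors Stat2 rose by 0.79 ± 0.20, a call lost without aPD1 tumor 4 (adjusted p = 0.0517). Between the sets the effect on Stat2 differed by 1.33 ± 0.19 (edgeR adjusted p = 0.0543).

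**Figure D5:**
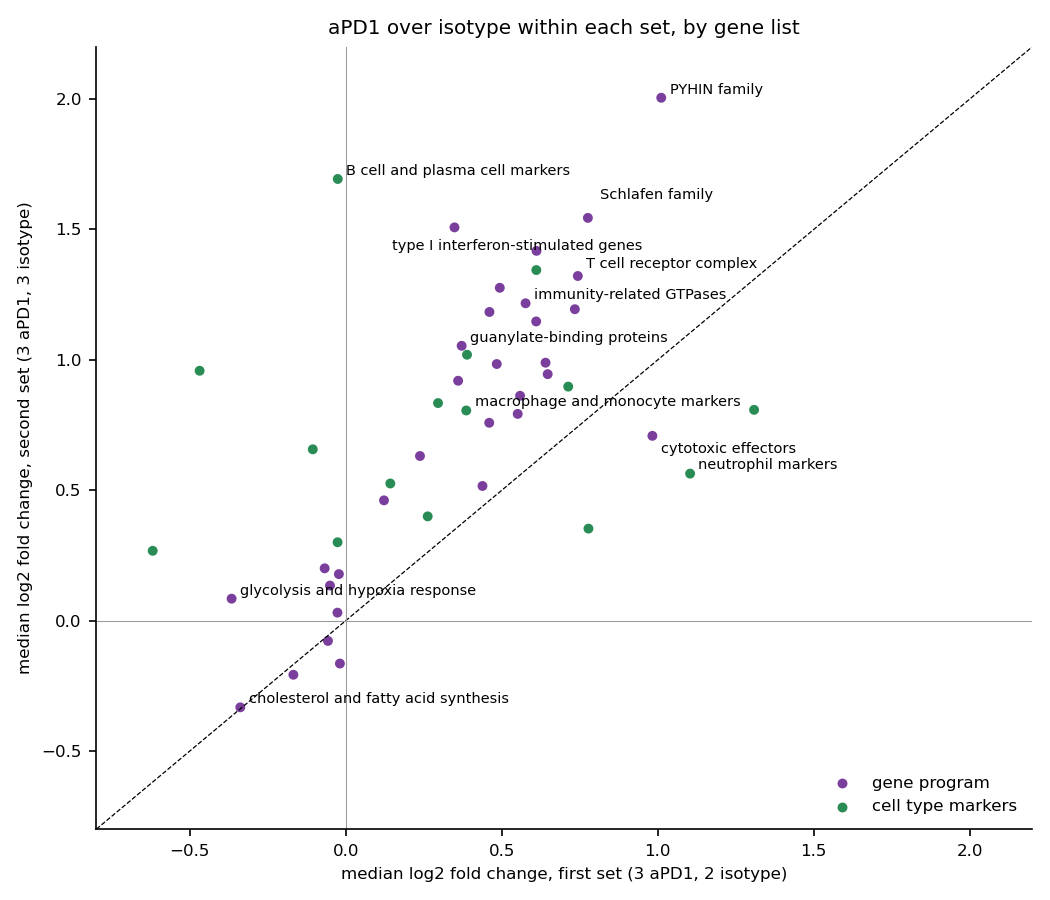
Median log2 fold change of aPD1 over isotype for gene programs (purple) and cell type markers (green), without the muscle, keratinocyte, erythroid and pan-leukocyte markers, in the first set (horizontal axis) and in the second set (vertical axis), with a dashed line of equal change. The type I interferon list, at 0.35 and 1.51, lies above the line, and sterol and fatty acid synthesis, at -0.34 and -0.33, lies on it.

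Leaving out the 4 aPD1 tumors that had over 100 CPM of muscle markers, a setting added after the values were seen, kept 2 aPD1 tumors, and 116 genes (0.685%) were higher and 18 (0.106%) lower. These included 16 of 39 type I interferon genes and 9 of 11 PYHIN genes (33 and 10 at an unadjusted p under 0.05). The medians of these lists were 0.82 and 1.50, against 0.93 and 1.57 with all 6 aPD1 tumors. Of 15 macrophage markers 1 was called higher by edgeR (13 at an unadjusted p under 0.05), against 11 with all tumors. Of 18 genes of the T cell receptor complex 0 were higher at an unadjusted p under 0.05. Of the sterol and fatty acid synthesis and ribosomal protein genes 0 were called lower by edgeR (14 and 37 at an unadjusted p under 0.05), against 12 and 17. The median of the T cell receptor complex was 0.87 and that of macrophage markers 0.67, against 0.98 and 0.62, while that of muscle markers went from 4.18 to -2.10.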

How the data were processed

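Poly(A) RNA-seq of 42 tumors was available in the form of expected counts per gene. The authors aligned reads with Bowtie 1.2.3 to strain-specific transcriptomes (GRCm38 and mm10 in the submitters' processing notes), estimated these expected counts with gbrs, which weights reads among gene copies and parental alleles, and deposited them without normalization. Of all values 15.2% were not whole numbers. Of 26811 identifiers, 26629 had a symbol in the GRCm38 annotation used for coordinates. No 2 of the 11 tumors were close enough to be a repeated library.

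Expected counts were rounded and tested in R 4.3.3 with edgeR 4.0.16 (filterByExpr, with 10 counts as its minimum and 15 as its minimum total, then TMM, quasi-likelihood test and Benjamini-Hochberg adjustment). Each tumor came from 1 mouse. Total counts had a median of 21115853 in isotype and 18302068 in aPD1 tumors. Alternatives were DESeq2 1.42.0, other scalings, filters and subsets of tumors, and each tumor left out. The script was tested on simulated counts for this comparison (16932 genes), where 78 of 100 genes changed 2-fold and 64 of 100 changed 1.5-fold were recovered and 4 unchanged genes were called.

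Named genes were the 12 higher and the 12 lower ones with the largest fold change, among called genes whose groups did not overlap and whose mean log2 CPM reached 1, up to 4 called genes per list by p, and 14 genes of interest. Aim2, Ciita, Cd74, H2-Ab1, Il2rb, Sqle, Srebf2, Fasn, Acaca, Acly, Csf2, Il2 and Pnrc1 were named after their values were seen. The tumors, the 53 lists and the rules were chosen with earlier results of these data known, and lists were described without a test. Some members of the lists are not reported here by name.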

Additional observations from a re-analysis of the deposited data

Results flagged for a closer look

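In 182 groups examined (the 12 higher and 12 lower named genes, the 14 genes of interest and the 53 lists, each in isotype and in aPD1 tumors), 8 had 1 tumor apart from the others by more than Dixon's critical ratio of gap to range (0.71 for 5 tumors, 0.625 for 6), close to the 1 in 20 that chance gives. In aPD1 tumors these were Kcne3 (ratio 0.658, the least lowered tumor being replicate 2), Ctxn1 (0.699), Tcf7l1 (0.664), the Serpina3 cluster (0.719, replicate 2 low) and the glycolysis and hypoxia list (0.677, replicate 1 low). In isotype tumors they were Pdcd1 (0.723, replicate 3 low), the inflammatory mediators (0.836, replicate 2 high) and the lipid-handling macrophage genes (0.842, replicate 1 low).

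The effect of aPD1 on Pnrc1, a nuclear receptor coactivator, differed between the tumor sets by 1.10 on the log2 scale (edgeR adjusted p = 0.0399). Its level was 43.9 and 42.04 CPM in isotype and 31.2, 28.9 and 28.8 CPM in aPD1 tumors of the first set, and 23.9, 25.998 and 22.4 CPM against 34.3, 38.1 and 35.4 CPM in the second. All 3 aPD1 tumors were thus below the isotype tumors in the first set and above them in the second.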

How the results depend on the processing

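With 1 tumor left out in turn, higher genes ranged from 511 to 1382 and lower genes from 159 to 603. Scaling by library size only, which moved the median of all genes to -0.08, gave 769 higher and 1174 lower genes, and the 11 tumors alone 234 lower genes. In the first set 1 gene was higher and 1 lower, and without the 4 aPD1 tumors with muscle RNA 116 and 18, both fits with fewer tumors. For the other changes the cause was not tested. DESeq2 called 1288 higher and 437 lower genes. Deviations of same-numbered tumors correlated at -0.06 to 0.18, over 0.1 in 1 of 5 pairs, and 2 of 5 isotype tumors correlated best with their own number, so the numbers were not taken to pair tumors. With the replicate block 1159 genes were higher and 601 lower. The difference between sets was called for 12 genes with all 42 tumors, 44 with a filter of 5 total counts, 0 by library size only (edgeR, 1206 at an unadjusted p under 0.05) and 0 to 68 with 1 tumor left out.

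Of 130 called named genes, 72 kept the call without any 1 tumor, 106 in the 11 tumors alone, 129 by DESeq2, 126 with the block and 20 without the 4 tumors with muscle RNA. In that last fit Myh4, Actn3, Atp2a1 and Tnnt3, all of muscle, went to -1.16, -1.36, -2.65 and -1.77, the muscle markers to a median of -2.10 and the B cell and plasma cell markers to -0.032. Among uncalled genes with 1 tumor left out, Ncr1 ranged from -0.045 to 0.50, Spp1 from -0.26 to 0.025 and Mki67 from -0.0089 to 0.16. Spp1 was at 0.044 in the first set and Mki67 at -0.087 in the second. Lists whose median was above 0 with all tumors and below 0 in the first set were NF-kB feedback (-0.023), p53 targets (-0.068), B cell and plasma cell (-0.026), mature dendritic cell (-0.11) and adipocyte markers (-0.47), MHC class I presentation (-0.051), fibroblast and matrix genes (-0.027) and the unfolded protein response (-0.027). Depth limits genes such as Ifit1bl1, with 8 counts in its lowest tumor.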
